A study of Mus musculus with 23 samples.

Results

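Motile cilium genes were followed through 2 tables of normalized counts from mouse lung tumor cells. A gene was taken as a member if its symbol named a dynein heavy chain (Dnah), a dynein intermediate chain (Dnaic or Dnai), a dynein assembly factor (Dnaaf), a component of the nexin-dynein regulatory complex (Drc), a cilia and flagella associated protein (Cfap), a tektin (Tekt) or a radial spoke protein (Rsph), each followed by its number, or if it was one of the regulators Foxj1, Rfx2, Rfx3, Mcidas and Ccno. The rule found 65 genes in each table, of 35455 genes in the table with the PI3K groups and 35454 in the table with the PGC1a groups. Of these, 54 reached a mean normalized count of 10 in the PI3K table, 47 did so in the PGC1a table, and 46 did so in both.

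A motile cilium is built on microtubule doublets around a central pair, and it beats because outer and inner arm dyneins slide the doublets past each other. Radial spokes and the nexin-dynein regulatory complex hold the doublets together and pass control from the centre to the arms, and tektins and other proteins line the inside of the doublets. In the lung this machinery belongs to the multiciliated cells of the airway, where Mcidas and Ccno start the making of many basal bodies and Foxj1 and the RFX factors switch on the axoneme genes. Alveolar type 2 (AT2) cells, which make surfactant, carry no motile cilia.

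The samples were tdTomato-positive tumor cells sorted from mouse lungs and read by RNA-seq. All mice carried 1 Braf CAT allele, which CRE recombinase switches to an activated BRAF together with tdTomato, and CRE came from an adenovirus that drives it from the Sftpc promoter, so that it acts in Sftpc-expressing cells. The BRAF group (genotype CAT/+) had 6 libraries, 1 at 2 weeks, 3 at 6 weeks and 2 at 12 weeks after infection. The BRAF/PI3K group (CAT/+; HR/+) also carried 1 latent allele of mutant Pik3ca and had 8 libraries, 2 at 2 weeks, 4 at 6 weeks and 2 at 12 weeks. In a separate table, normalized on its own, littermates at 12 weeks had the Braf allele with 1 floxed copy of Ppargc1a (PGC1a mutant/+, here PGC1a Het, 5 libraries) or with both copies floxed (PGC1a mutant/mutant, here PGC1a Null, 4 libraries). The 12 week mice of the PI3K study received a lower virus dose than the 2 and 6 week mice, so that week and dose cannot be told apart.

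The libraries summed to 16433820 to 20287296 normalized counts in the PI3K table and 7115753 to 9159567 in the PGC1a table. Sftpc, the surfactant gene that marks AT2 cells, had normalized counts of 21173 to 392700 and 222448 to 348418, respectively. Ppargc1a, the targeted gene, had normalized counts of 75.8, 170, 155, 200 and 561 in PGC1a Het and 72.7, 38.0, 51.6 and 124 in PGC1a Null. These groups overlapped, and the log2 fold change (Null over Het) was -1.51 (SE 0.50, limma adjusted p = 0.978). Reads outside the floxed part could still be counted there, but this was not tested. Both BRAF/PI3K libraries at 12 weeks went against their sex labels, in that Ddx3y and Eif2s3y together had 85.7 normalized counts where the label is male and 2729 where it is female, while the remaining 13 female-labelled libraries had 17.2 to 118 and the remaining 8 male-labelled ones 473 to 2694. By label, BRAF had 5 female and 1 male library, BRAF/PI3K 3 and 5, PGC1a Het 3 and 2 and PGC1a Null 3 and 1. The 2 disagreeing libraries carry the same genotype label. The weeks pooled comparison and that of 12 against 6 weeks are also given without them below. The comparison at 12 weeks and the interaction of 12 against 6 weeks cannot be fitted without them. For the other PI3K comparisons no value without both is given.

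Because RFX factors bind the X-box, a paired motif with the half-site GTTGCC, the promoters of the members were read for this half-site. RefSeq promoters (GRCm38.p6, 250 bases before to 50 after the start) were matched for 53 of the 65 members. The half-site, read on both strands, was in 20 of the 53 (37.7%) and in 14.1% of the 27025 promoters of all genes. One fixed spelling of the full X-box was in 0 of 53 and in 0.529% of all promoters, and it misses pairs of half-sites that are spelled or spaced otherwise. The forkhead motif GTAAACA, of the kind FOXJ1 binds, was in 4 of 53 (7.55%) and in 4.05% of all promoters. Several other spellings of these motifs were tried first, so the shares are a description. Windows of 30 bases are shown for the 4 regulators that hold the half-site, for Cfap161, Cfap74, Drc1 and Dnah10, whose values are described below, and for Cfap43, which holds the forkhead motif. Capitals mark the motif, read 5′ to 3′ on the strand of the gene, where GGCAAC is the half-site on the opposite strand.
Mcidas, chr13:112993661-112993690 (+): gggggaagccagGTTGCCaggttggttaac
Ccno, chr13:112987571-112987600 (+): acccgggctgcgGTTGCCacggtgacgaca
Rfx2, chr17:56831107-56831136 (−): agcttggtaaccGTTGCCgggcgcaacgcc
Rfx3, chr19:28011118-28011147 (−): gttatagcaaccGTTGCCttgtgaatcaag
Cfap161, chr7:83794861-83794890 (−): cctggtcgtcatGGCAACgaagcacgctaa
Cfap74, chr4:155409191-155409220 (+): aagcagccttccGTTGCCatggagctgcgc
Drc1, chr5:30281370-30281399 (+): ctgctttcccttGGCAACggcttgttccta
Dnah10, chr5:124725053-124725082 (+): cgcgctggcgccGTTGCCcaggtccccgtt
Cfap43, chr19:47837398-47837427 (−): aggatacaggtGTAAACAgtggcatcttcg

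Most members were measured at low levels. Mean normalized counts of the 65 members had a median of 46.0 in the PI3K table and 32.2 in the PGC1a table. Between 49 and 62 members per library were above 0 in the PI3K table, and between 58 and 65 in the PGC1a table. All 12 dynein heavy chains and all 5 regulators reached a mean of 10 in both tables, as did 7 of the 8 radial spoke genes. Of the 26 Cfap genes 20 reached it in the PI3K table and 17 in the PGC1a table, of the 5 tektins 3 and 1, of the 3 Drc genes 3 and 2, of the 2 intermediate chains 2 and 1, and of the 4 assembly factors 2 and 2.

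For the PI3K groups, 11 members were under a mean of 10, from Cfap206 at 7.44, Cfap157 at 7.33, Dnaaf3 at 5.61, Dnaaf1 at 5.32, Cfap99 at 5.16 and Cfap221 at 4.57 down to Cfap58 at 2.56, Tekt4 at 2.01 and Tekt3 at 1.63. Rsph6a was above 0 in 1 library there, at 0.477, and Cfap73 was listed at 0 in all 14. The members just inside were Rsph10b at 10.3, Drc7 at 10.7 and Cfap57 at 10.8. In the PGC1a table Cfap157 reached 11, and 18 members were under 10, with Cfap70 at 9.85 and Cfap126 at 9.47 nearest to it and Tekt3 lowest at 1.02. Cfap58, Cfap73, Cfap99, Cfap206, Cfap221, Dnaaf1, Dnaaf3, Rsph6a, Tekt3 and Tekt4 were under 10 in both tables.

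**Figure D1:**
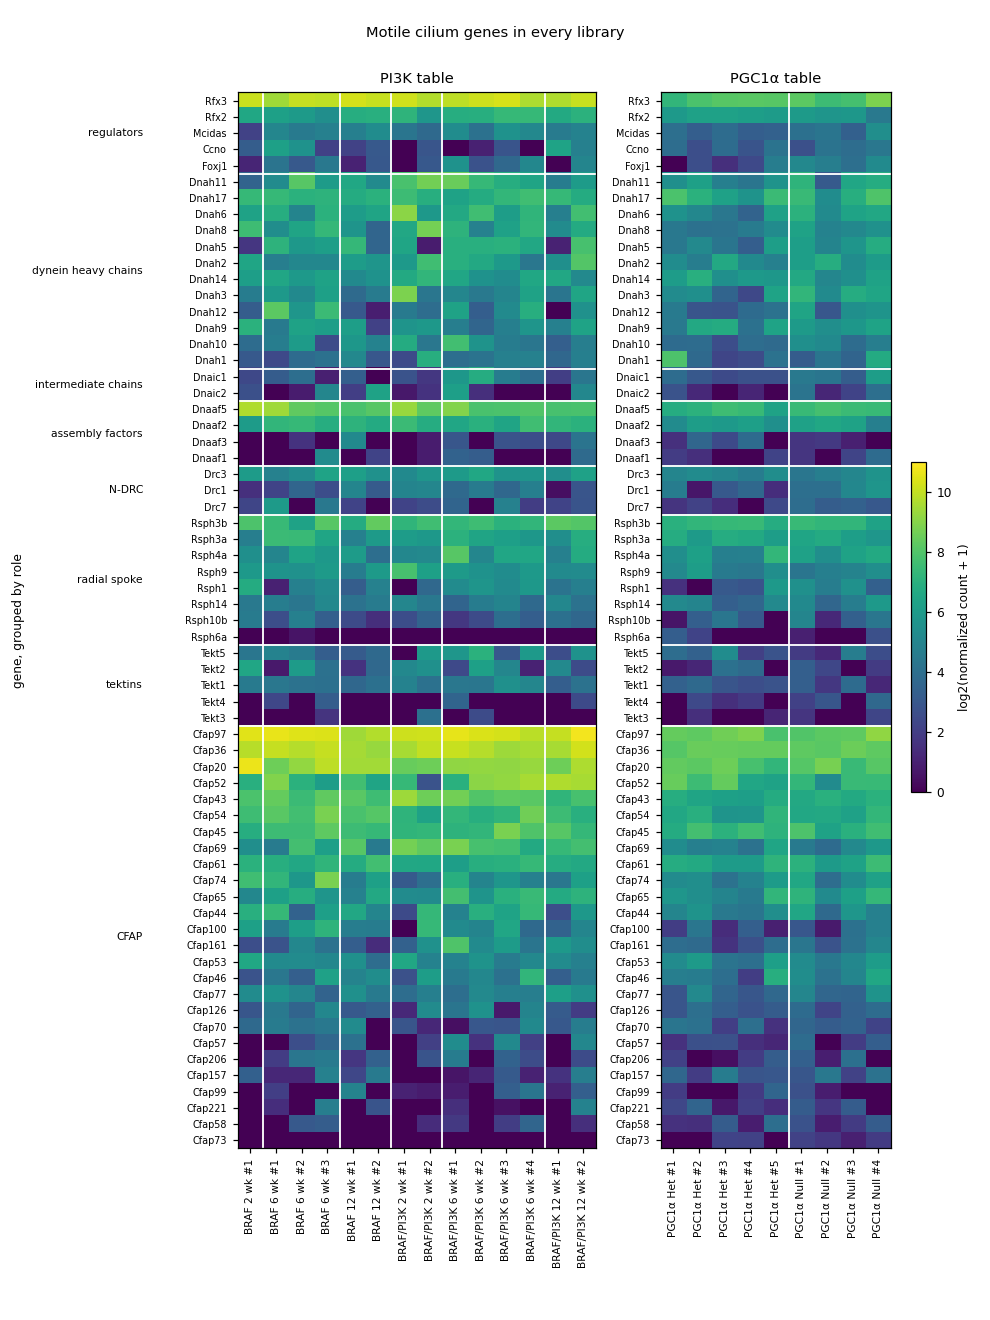
Heat map of log2(normalized count + 1) of the 65 members, grouped by role (vertical), in the 14 libraries of the PI3K table and the 9 of the PGC1a table (horizontal), each table normalized on its own. Cfap97, Cfap36, Cfap20, Rfx3 and Dnaaf5 form bright lines in the PI3K table. Of these, Cfap20 (350 to 1637 normalized counts) and Dnaaf5 (223 to 822) are the least steady. Most dynein, tektin and radial spoke genes vary from library to library within a group.

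To compare genes with each other, mean counts were divided by exon length (GENCODE vM21 exons, GRCm38). As a measure of signal in genes without a known role in the lung, the 1434 olfactory and vomeronasal receptor genes, which work in the nose and were chosen after values had been seen, were treated alike. In the PI3K table the members had a median of 9.25 counts per kilobase against 1.49 for the receptor genes. There were 7 members above the 95th percentile of the receptor genes (45.3 counts per kilobase), namely Cfap36 at 321, Cfap97 at 243, Cfap52 at 150, Cfap20 at 149, Dnaaf5 at 106, Rfx3 at 92.6 and Rsph3b at 62.7. In the PGC1a table the members had a median of 4.58 counts per kilobase against 5.46 for the receptor genes, and 1 member, Cfap36 at 119, was above their 95th percentile (95.8). The dynein heavy chains, which are long genes, spanned 1.80 to 9.94 counts per kilobase (median 5.04) in the PI3K table and 1.23 to 8.65 (median 3.90) in the PGC1a table, within the range of the receptor genes in both.

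**Figure D2:**
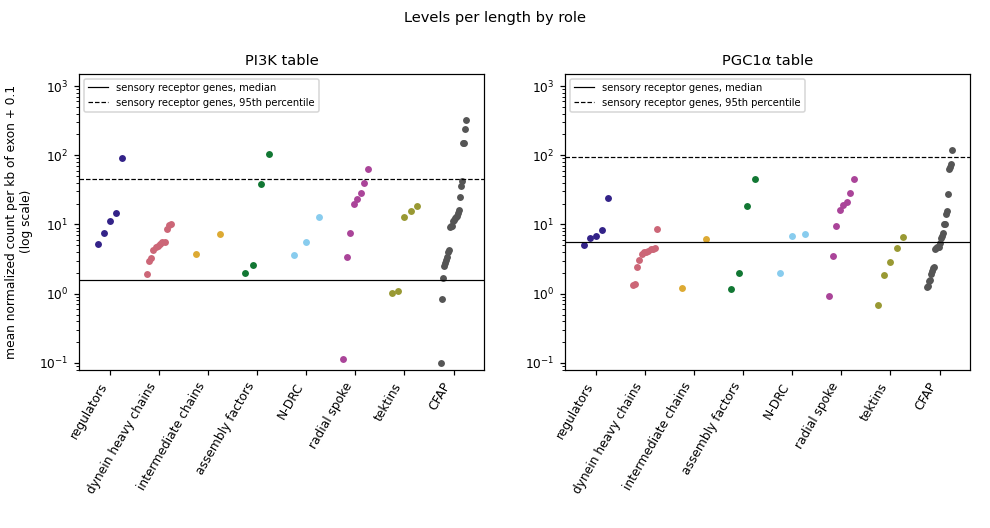
Mean normalized count per kilobase of exon, plus 0.1 and on a log axis, for each of the 65 members by role, in the PI3K table and the PGC1a table, with lines at the median and the 95th percentile of the olfactory and vomeronasal receptor genes. Here 7 members lie above the upper line in the PI3K table and 1 in the PGC1a table, and the dynein heavy chains lie below it in both.

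Among the regulators, Foxj1 (chr11:116330704-116335399, minus strand), the factor that starts the motile cilium program, had normalized counts of 1.17 in the BRAF library at 2 weeks, 17.5, 7.41 and 20.3 at 6 weeks and 1.10 and 7.08 at 12 weeks. In BRAF/PI3K it had 0 and 7.25 at 2 weeks, 47.8, 5.79, 12.1 and 32.6 at 6 weeks and 0 and 31.0 at 12 weeks. The highest value of each genotype was at 6 weeks, values varied widely within a week, and the genotypes overlapped. In the PGC1a table Foxj1 had 0, 5.23, 1.83, 4.43 and 24.5 in PGC1a Het (mean 7.19 ± 9.87, SD, n = 5) and 34.2, 25.3, 15.2 and 36.9 in PGC1a Null (27.9 ± 9.81, SD, n = 4). The Null libraries lay above 4 of the 5 Het libraries, and Het replicate 5 lay among them.

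Mcidas (chr13:112993845-113000394, plus strand) and Ccno (chr13:112987802-112990777, plus strand) are neighbours on the chromosome and act early in the making of basal bodies. Mcidas ranged from 3.51 to 39.9 normalized counts in BRAF (median 26.2, n = 6) and from 12.7 to 48.5 in BRAF/PI3K (median 25.7, n = 8). Ccno was uneven, with 82.1 and 26.4 in the BRAF/PI3K libraries at 12 weeks but at most 7 in the other 6 BRAF/PI3K libraries, and with 75.9, 47.8 and 3.36 in the 3 BRAF libraries at 6 weeks. In the PGC1a table Mcidas had 15.3, 8.84, 13.8, 8.91 and 9.75 in Het and 15.9, 18.4, 9.45 and 42.4 in Null, and Ccno had 14.2, 5.18, 13.7, 6.29 and 17.2 in Het and 5.5, 17.1, 14 and 19.4 in Null. Both genes overlapped between those groups, and the highest value of each was in Null replicate 4.

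Rfx2 (chr17:56775897-56831013, minus strand) and Rfx3 (chr19:27761721-28011166, minus strand) encode RFX factors, which also serve non-motile cilia. Rfx3 had the most counts per kilobase of the 5 regulators, with 691 to 1251 normalized counts in BRAF (mean 1025 ± 187, SD, n = 6) and 812 to 1275 in BRAF/PI3K (1018 ± 177, SD, n = 8). Rfx2 ranged from 42.7 to 121 in BRAF (median 84.4) and from 53.1 to 165 in BRAF/PI3K (median 125). In the PGC1a table Rfx2 had 60.6, 77.8, 77.8, 69.8 and 65.5 in Het and 62.7, 52.4, 55.6 and 21.0 in Null, where 3 of the 4 Null libraries lay below all Het libraries and replicate 1 lay above the lowest of them. Rfx3 had 151 to 287 in Het and 188 to 451 in Null, overlapping.

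**Figure D3:**
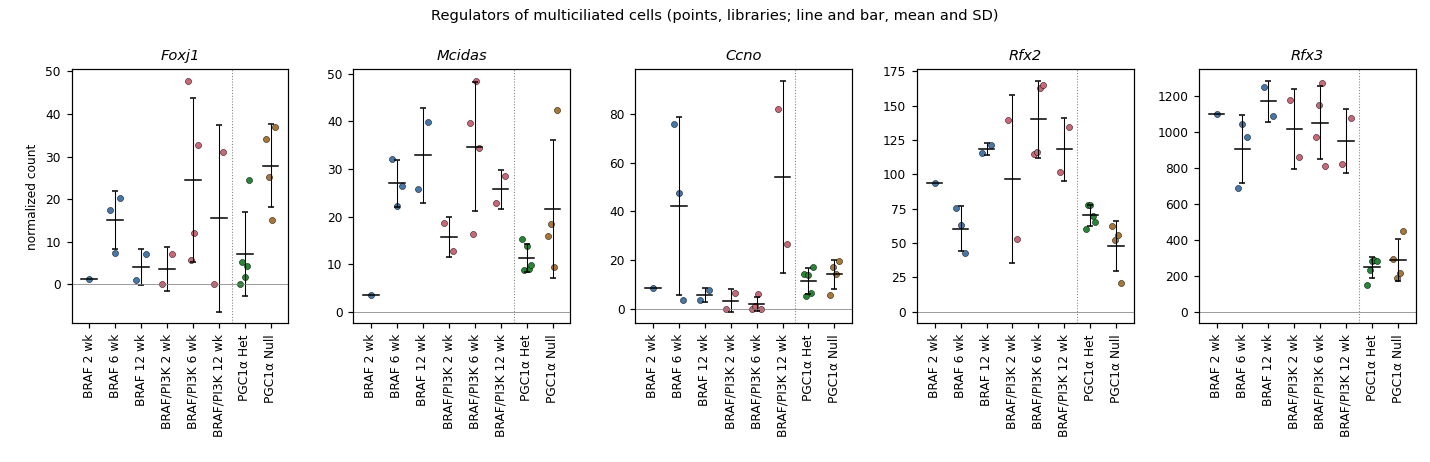
Normalized counts of Foxj1, Mcidas, Ccno, Rfx2 and Rfx3 (1 panel each, vertical) in every library of the 8 groups (horizontal), with the group mean and SD, where the PI3K groups and the PGC1a groups come from separately normalized tables. Rfx3 and Rfx2 are present in every library, while Foxj1 and Ccno reach 0 in some libraries of the PI3K table.

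The first comparison asked whether the activated PI3K allele changed these genes in BRAF tumor cells, with the weeks pooled. With limma on log2(normalized count + 1), 0 of the 54 members tested had a Benjamini-Hochberg adjusted p under 0.05, where 0.0228% of all 17558 genes tested did, and the lowest adjusted p of a member was 0.472. At an unadjusted p under 0.05 there were 4 members, Cfap161 and Cfap69 upwards and Cfap74 and Cfap54 downwards, beside 6.83% of all genes, 3.46% upwards and 3.38% downwards. The log2 fold change (BRAF/PI3K over BRAF) was above 0 for 35 of 54 members, against 51.8% of all genes, and its median was 0.12, while the median over all genes was within 0.02 of 0 in this and the other comparisons. No member separated the genotypes, where 0.0854% of all genes had every BRAF/PI3K library above and 0.125% every one below the BRAF libraries. Without both BRAF/PI3K libraries at 12 weeks the members' median was 0.18 and 8 members had an unadjusted p under 0.05, with 0 adjusted under 0.05. The count of members at an unadjusted p under 0.05 was 2 without BRAF 6 week replicate 3 and 7 without BRAF/PI3K 2 week replicate 2 or 12 week replicate 1. Here and below, such counts from refits are given without the share of all genes at that level. A shift of the whole table can therefore not be told apart from one of the members. Markers of other cell types were read in the same comparison, with 0 at a limma adjusted p under 0.05. Log2 fold changes were above 0 for 20 of 20 endothelial markers (median 0.90), 17 of 19 macrophage markers (0.93) and 3 of 20 AT2 markers (-0.95). Of other lists, 17 of 20 alveolar type 1 (median 0.25), 13 of 20 fibroblast (0.52) and 9 of 15 club cell markers (0.24) were above 0. So were 4 of 15 lymphocyte (-0.23) and 0 of 7 erythroid markers (-0.82, with 2 below 0 at an unadjusted p under 0.05). Summed counts were 11784 to 106236 in BRAF and 25514 to 198063 in BRAF/PI3K for the endothelial list, 2833 to 9569 and 5342 to 37524 for the macrophage list, and 658420 to 1778130 and 123485 to 1309040 for the AT2 list. Their part in the members' values was not tested. Fewer cells of a type and less RNA per cell cannot be told apart in sorted bulk samples such as these.

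The members described next, other than the regulators, were picked for the size of their log2 fold changes, so their values are a description. Cfap161, a protein of the inside of the doublets (chr7:83774101-83794880, minus strand), stood at the top of this comparison. It had 5.16 normalized counts in the BRAF library at 2 weeks, 6.13, 33.4 and 16.5 at 6 weeks and 8.62 and 1.61 at 12 weeks, against 9.63 and 45.9, then 247, 37.6, 65.2 and 18.5, then 59.2 and 41.2 in BRAF/PI3K. All 8 BRAF/PI3K libraries were above the BRAF mean on the log2 scale, and they did not overlap with BRAF at 2 or 12 weeks but did at 6 weeks. The log2 fold change was 2.26 (SE 0.67, 95% interval 0.83 to 3.68, limma adjusted p = 0.472), or 2.20 without both BRAF/PI3K libraries at 12 weeks.

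Cfap69, a protein known from sperm flagella and olfactory cilia (chr5:5579278-5664239, minus strand), followed. It ranged from 21.5 to 280 normalized counts in BRAF (median 57.4) and from 101 to 434 in BRAF/PI3K (median 216), with 8 of 8 BRAF/PI3K libraries above the BRAF mean on the log2 scale. The log2 fold change was 1.79 (SE 0.56, 95% interval 0.60 to 2.98, limma adjusted p = 0.500), and it was 1.90 without both BRAF/PI3K libraries at 12 weeks. Within 12 weeks BRAF had 280 and 21.5 and BRAF/PI3K 163 and 210, so that the ranges crossed.

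Dnaic1, an outer arm intermediate chain, ranged from 0 to 14.8 normalized counts in BRAF (median 6.23) and from 2.43 to 113 in BRAF/PI3K (median 17.1), with a log2 fold change of 1.73 (SE 0.86). Dnah11, an outer arm heavy chain, ranged from 10.2 to 280 and from 23.8 to 402, with a log2 fold change of 1.24 (SE 0.70). Cfap57 had 0 in 3 of the 6 BRAF libraries and in 2 of the 8 BRAF/PI3K libraries and reached 16.1 and 39.4, with a log2 fold change of 0.93. For these genes the genotypes overlapped, and the limma adjusted p was 0.730, 0.750 and 0.883. Without both BRAF/PI3K libraries at 12 weeks Dnaic1 had 2.01 and Dnah11 1.80.

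At the other end stood Cfap74 and Cfap54, proteins of the central apparatus. Cfap74 had 195 normalized counts in BRAF at 2 weeks, 149, 55.9 and 439 at 6 weeks and 23.6 and 74.8 at 12 weeks, against 7.67 and 15.4, then 122, 29.8, 53.9 and 26.5, then 19.5 and 75.7. Cfap54 ranged from 192 to 441 in BRAF (median 253) and from 79.2 to 388 in BRAF/PI3K (median 144). In both, 7 of 8 BRAF/PI3K libraries were below the BRAF mean on the log2 scale, and the ranges overlapped. The log2 fold changes were -1.69 for Cfap74 (SE 0.67) and -0.79 for Cfap54 (SE 0.31), each with a limma adjusted p of 0.657. Ccno had -1.51 (SE 1.09), Cfap100, which belongs to the inner arms, -1.02, and Dnaic2 -0.93. Leaving out 1 library moved Cfap100 to -0.37 (without BRAF/PI3K 2 week replicate 1), Dnaic2 to -0.23 (without BRAF 12 week replicate 2) or -1.55 (without BRAF/PI3K 6 week replicate 1), Dnah11 to 0.77 (without the BRAF library at 2 weeks) and Ccno to -1.01 (without BRAF 6 week replicate 1). Cfap57 moved to 0.58 without the BRAF library at 2 weeks, BRAF 6 week replicate 1 or BRAF 12 week replicate 2, and to 1.40 without BRAF 12 week replicate 1. Without both BRAF/PI3K libraries at 12 weeks the log2 fold changes were -1.79 for Cfap74, -0.78 for Cfap54 and -2.62 for Ccno.

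Of the regulators, Foxj1 had a log2 fold change of 0.33 (SE 0.97, 95% interval -1.73 to 2.40, limma adjusted p = 0.959), Mcidas 0.28 (SE 0.49), Rfx2 0.55 (SE 0.31), Ccno -1.51 (SE 1.09) and Rfx3 -0.01 (SE 0.17, 95% interval -0.36 to 0.35). Exact two-sided permutation tests of the genotype labels, run for 14 members of which 9 were picked for the size of their difference, gave p = 0.740 for Foxj1, 0.621 for Mcidas, 0.0886 for Rfx2, 0.224 for Ccno and 0.975 for Rfx3. The interval of Foxj1 was wide and that of Rfx3 narrow. The sign for Rfx3 became positive and those for Foxj1 and Mcidas negative under some alternative settings.

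Among the parts of the axoneme, the dynein heavy chains had 9 of 12 log2 fold changes above 0 with a median of 0.53, the radial spoke genes 5 of 7, the Drc and tektin genes 3 of 3 each, the assembly factors and the intermediate chains 1 of 2 each, and the Cfap genes 10 of 20 with a median of -0.01. For the genes with most counts in each role, the means differed by less than the larger SD. Cfap97 had 1220 ± 359 normalized counts in BRAF and 1277 ± 275 in BRAF/PI3K (SD, n = 6 and 8), and Cfap36 873 ± 166 and 889 ± 191. Dnah17, an outer arm heavy chain of the sperm flagellum, had 139 ± 23 and 140 ± 41.6, and Drc3 55.5 ± 21.2 and 57.9 ± 18.5. Dnaaf2 had 122 ± 35.4 and 133 ± 40.1, and Dnaaf5 436 ± 252 and 325 ± 153. Among the tektins, Tekt2 had 30.9 ± 37.0 and 28.7 ± 25, and Tekt5 16.7 ± 8.38 and 45.2 ± 42.3. Rsph3a and Rsph3b are close copies of one another, so the split of reads between them is uncertain, and they had 92.2 ± 69.1 and 78.5 ± 31.4, and 200 ± 97.3 and 192 ± 62.3, respectively.

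**Figure D4:**
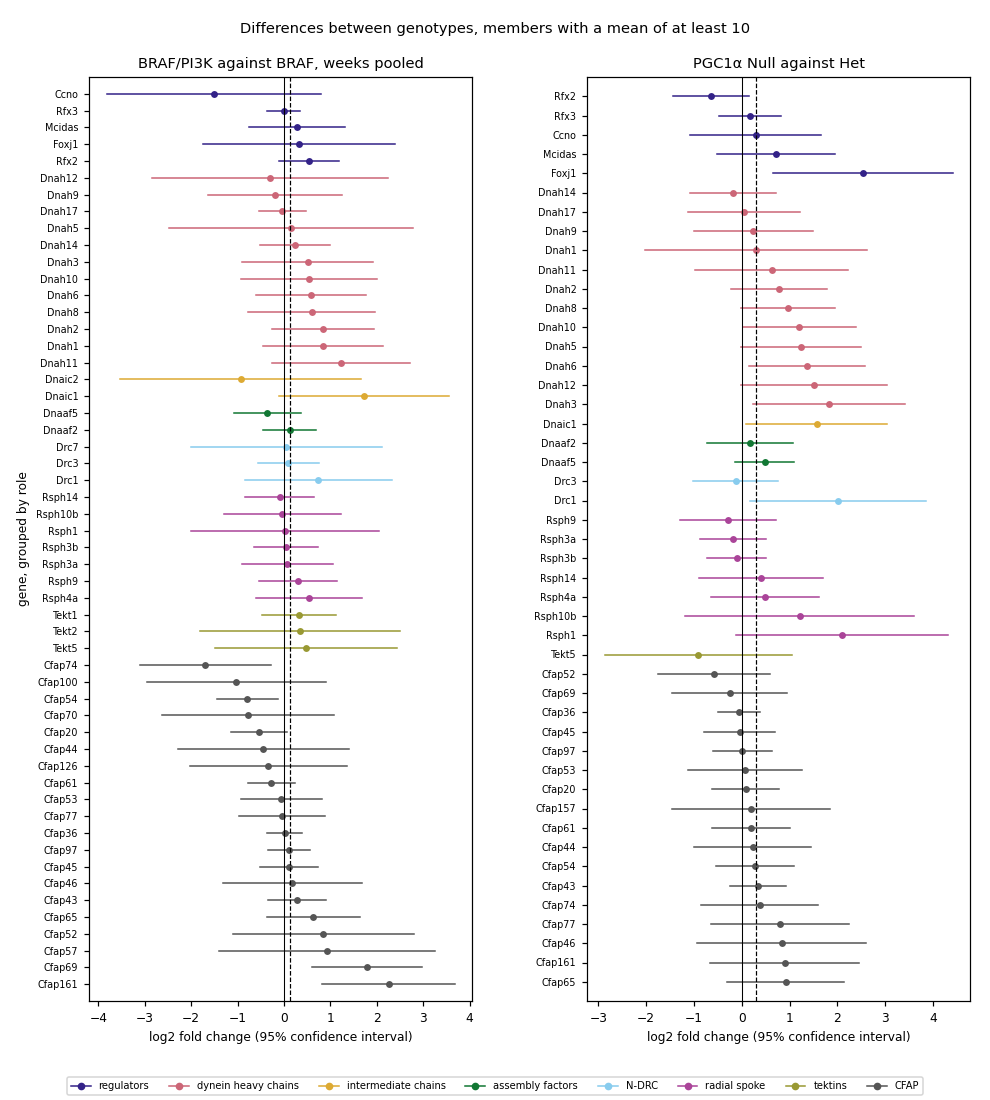
Log2 fold changes with 95% intervals from limma, by role, for the 54 members tested in the BRAF/PI3K over BRAF comparison (weeks pooled) and the 47 tested in PGC1a Null over Het, with a dashed line at the members' median. Medians lie at 0.12 and 0.30, and 0 members in either panel have an adjusted p under 0.05.

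Within single weeks, 0 of 54 members had a limma adjusted p under 0.05, where 0.0171% of all genes did so in the youngest tumors, 0.0228% in the 6 week tumors and 0.0114% in the 12 week tumors. At an unadjusted p under 0.05 there were 7 members at 2 weeks, 4 up and 3 down, beside 13.5% of all genes, 6.93% up and 6.57% down. At 6 weeks there were 3, Dnaic1 and Rfx2 up and Ccno down, beside 4.24% of all genes, 2.24% up and 1.99% down. At 12 weeks there were also 3, Cfap161 and Cfap97 up and Drc1 down, beside 3.76%, 2.18% up and 1.58% down. Leaving out 1 library gave 12 at 2 weeks (without BRAF/PI3K 2 week replicate 2), and at 6 weeks 7 (without BRAF 6 week replicate 2), 6 (without BRAF/PI3K 6 week replicate 4) or 2 (without BRAF 6 week replicate 1 or BRAF/PI3K 6 week replicate 2). At 12 weeks it was 2 without BRAF/PI3K 12 week replicate 1. In order of week, log2 fold changes above 0 were found for 26, 26 and 32 of the 54 members (medians -0.03, -0.00 and 0.31), where 50.7%, 50.5% and 50.4% of all genes had such values. The 2 week comparison rests on 1 BRAF library, assumed to vary like the other groups, which is labelled female while both BRAF/PI3K libraries of that week are labelled male, so that sex and genotype cannot be told apart within that week. Its largest values, 4.76 for Dnah11, -4.90 for Rsph1 and -4.04 for Cfap74, are differences from that library. There Dnah11 had 10.2 normalized counts against 228 and 402, and Rsph1, a radial spoke head protein, had 106 against 0 and 12.0. The heavy chains had 10 of 12 log2 fold changes above 0 at 2 weeks, with a median of 1.07, the Cfap genes 8 of 20 (-0.39), the radial spokes 3 of 7 (-0.34), the tektins 0 of 3 (-1.17), the intermediate chains 0 of 2 (-0.78), the assembly factors 1 of 2, the Drc genes 2 of 3 and the regulators 2 of 5 (-0.11). In that comparison 20 of 20 endothelial markers had values above 0 (median 3.22, 18 at an unadjusted p under 0.05), as did 17 of 19 macrophage markers (1.73), 12 of 19 ciliated cell markers (0.64, with 0 above and 3 below 0 at an unadjusted p under 0.05), 11 of 25 central pair and other axoneme genes (-0.52, with 3 below 0 at that level) and 3 of 20 AT2 markers (-2.27, with 15 below 0 at that level). Their limma adjusted p values were not under 0.05, and their part in the members' values was not tested.

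At 6 weeks, the week with most libraries, Dnaic1, Drc1 and Rfx2 had every BRAF/PI3K library above every BRAF library, beside 2.63% of all genes, and no member the reverse, beside 2.60%. Dnaic1 had 8.25, 14.8 and 0.938 normalized counts in BRAF and 56.0, 113, 23.9 and 14.9 in BRAF/PI3K. Drc1, a scaffold of the nexin-dynein regulatory complex, had 3.67, 11 and 5.14 against 12.6, 22.9, 11.7 and 25.6, and Rfx2 had 75.4, 63.2 and 42.7 against 115, 116, 163 and 165. The margins were small for Dnaic1 and Drc1 and wider for Rfx2. Dnaic1, also counted above at an unadjusted p under 0.05, was tested because of its BRAF/PI3K values. Its mean over all weeks was 6.21 in BRAF and 29.8 in BRAF/PI3K. The log2 fold change was 2.61 for Dnaic1 and 1.21 for Rfx2 (SE 0.40, with an exact permutation p of 0.0571, the smallest that this design can give). For Rfx2, however, the BRAF libraries at 2 and 12 weeks had 93.5, 116 and 121 and the BRAF/PI3K libraries 140, 53.1, 102 and 134, which overlap. At 12 weeks, with 2 libraries against 2, 9 members were fully higher and 6 fully lower in BRAF/PI3K, beside 15.4% and 13.8% of all genes. Values above 0 were found for 18 of 19 macrophage markers (median 0.98) and 17 of 20 endothelial markers (0.41) in the 12 week contrast, and for 16 of 19 (0.63) and 16 of 20 (0.22) in the 6 week contrast. Club cell markers had 3 of 15 above 0 at 12 weeks (-0.75) and 11 of 15 at 6 weeks (0.67, 2 at an unadjusted p under 0.05), ciliated cell markers 9 of 19 (-0.18) and 10 of 19 (0.14), AT2 markers 7 of 20 (-0.23) and 3 of 20 (-0.40) and intraflagellar transport genes 22 of 28 (0.27) and 11 of 28 (-0.11), with 0 at a limma adjusted p under 0.05.

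The second comparison asked how the members differed between weeks, with genotype as a term of the fit. From 2 to 6 weeks 0 of 54 members had a limma adjusted p under 0.05, beside 0.0513% of all genes, and 7 had an unadjusted p under 0.05, 6 up and 1 down, beside 11.9%, of which 6.58% were up and 5.35% down. Log2 fold changes were above 0 for 34 of 54, with 51.4% of all genes above 0, and 16 of the 20 Cfap genes but 4 of the 12 heavy chains were among them. Cfap52, which also lines the doublets, had 120, 163 and 5.97 normalized counts in the 3 libraries at 2 weeks and 68.3 to 764 in the 7 at 6 weeks, with a log2 fold change of 2.55. Foxj1 had 2.77 (95% interval 0.52 to 5.03, limma adjusted p = 0.325) and Mcidas 1.57 (limma adjusted p = 0.259). Cfap65 had 32.6, 38.9 and 36.9 at 2 weeks and 51.0 to 206 at 6 weeks, and was the member without overlap, beside 1.49% of all genes. Of the markers, 19 of 20 for AT2 cells had log2 fold changes above 0 (median 1.46, 15 at an unadjusted p under 0.05), as did 13 of 15 for club cells (1.63), 15 of 19 for ciliated cells (0.46) and 2 of 20 for alveolar type 1 cells (-0.99, with 13 below 0 at an unadjusted p under 0.05). None of them had a limma adjusted p under 0.05, and their part in the members' values was not tested. The 2 week libraries were few, and the median of the members was 0.14 with and 0.47 without the BRAF library at 2 weeks.

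From 6 to 12 weeks, 40 of 54 members had log2 fold changes below 0 and 14 above, where 49.6% of all genes were above 0. The median of the members was -0.36, and it was -0.47, with 4 members at an unadjusted p under 0.05, without both BRAF/PI3K libraries at 12 weeks. By role, values above 0 numbered 2 of 12 for the heavy chains (median -0.40), 4 of 20 for the Cfap genes (-0.32), 2 of 7 for the radial spokes (-0.42), 0 of 3 for the tektins, 1 of 3 for the Drc genes and 3 of 5 for the regulators (0.11). Yet 0 members had a limma adjusted p under 0.05, as was the case for 0% of all genes, and 1 had an unadjusted p under 0.05, downwards, beside 5.31%, of which 2.30% were up and 3.02% down. That count was 6 without BRAF/PI3K 12 week replicate 2, 3 without the BRAF library at 2 weeks, BRAF 6 week replicate 3 or BRAF 12 week replicate 1, and 2 without BRAF/PI3K 6 week replicates 2, 3 or 4 or 12 week replicate 1. The member with all libraries in was the inner arm heavy chain Dnah12, with 302, 53.1 and 177 normalized counts in BRAF and 79.1, 8.72, 37.6 and 117 in BRAF/PI3K at 6 weeks, against 7.38 and 0.869, and 0 and 46.3, at 12 weeks. Its log2 fold change was -3.82 (SE 1.04, limma adjusted p = 0.841), and 1 library at 12 weeks, BRAF/PI3K replicate 2, lay within the range at 6 weeks. Foxj1 had -1.82 (95% interval -3.87 to 0.23). No member was without overlap, beside 0.41% of all genes higher and 0.308% lower.

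Markers of other cell types also leaned to one side between these weeks, with 0 at a limma adjusted p under 0.05. The log2 fold change from 6 to 12 weeks was above 0 for 5 of 19 ciliated cell markers (median -0.42), 5 of 15 club cell markers (-0.77), 2 of 20 endothelial markers (-0.89), 4 of 20 fibroblast markers (-0.99), 16 of 19 macrophage markers (1.25) and 19 of 20 AT2 markers (0.58). For the 1434 receptor genes the share above 0 was 51.7% of those tested, with a median of 0.01. The part of these in the members' values was not tested.

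The difference of the genotype effect between weeks was fitted as an interaction. For 6 against 2 weeks and for 12 against 6 weeks, 0 of 54 members had a limma adjusted p under 0.05, beside 0% of all genes in both, and 3 members each had an unadjusted p under 0.05, Cfap20, Dnah11 and Rsph1 in the first and Ccno, Cfap97 and Drc1 in the second. The first count was 8 without BRAF/PI3K 2 week replicate 2 and 5 without BRAF/PI3K 2 week replicate 1 or BRAF 6 week replicate 3, and the second was 5 without BRAF/PI3K 12 week replicate 1. Beside them stood 8.95% of all genes for the first (4.28% up, 4.66% down) and 2.87% for the second (1.54% up, 1.33% down). Values were above 0 for 29 and 28 of the 54 members, beside 50.3% and 50.8% of all genes. Ccno had the largest value for 12 against 6 weeks, 6.65 on the log2 scale (95% interval 2.41 to 10.89), following from 0 to 6.17 normalized counts in BRAF/PI3K at 6 weeks and 82.1 and 26.4 at 12 weeks, while BRAF had 3.36 to 75.9 and 3.45 and 7.53. Both high BRAF/PI3K values come from the libraries whose sex labels disagree with their Y-linked genes, and without them this interaction could not be fitted.

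The third comparison asked whether loss of PGC1a, a coactivator of mitochondrial genes, changed the members in BRAF tumor cells at 12 weeks. Of the 47 members tested, 0 had a limma adjusted p under 0.05, beside 0% of the 17424 genes tested, and 6 had an unadjusted p under 0.05, namely Foxj1, Drc1, Dnah3, Dnaic1, Dnah6 and Dnah10, all higher in Null, where 3.83% of all genes passed that level, 2.66% higher and 1.17% lower. Of these members, Foxj1, Drc1 and Dnaic1 had a mean under 10 in Het and were tested because of their Null values. The count and its direction rest in part on them. The log2 fold change (Null over Het) was above 0 for 36 of 47 members, against 51.1% of all genes, and the median was 0.30. Genes with a mean of 10 to 100, the range of most members, had a median of 0.14 with 61.6% above 0. No member separated the groups fully, beside 0.941% of all genes higher and 0.459% lower. By role, values above 0 numbered 11 of 12 for the heavy chains (median 0.88), 13 of 17 for the Cfap genes (0.19), 4 of 7 for the radial spokes (0.40), 4 of 5 for the regulators (0.29), 2 of 2 for the assembly factors, 1 of 2 for the Drc genes, 1 of 1 for the intermediate chains and 0 of 1 for the tektins.

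Foxj1, with the counts given above, had the highest log2 fold change, 2.53 (SE 0.87, 95% interval 0.64 to 4.41, limma adjusted p = 0.998). All 4 Null libraries were above the Het mean on the log2 scale, and an exact two-sided permutation test of the group labels gave p = 0.0317 for this gene alone. The Het mean of Foxj1 was under 10, so the gene was tested because of its Null values. In all, 15 members were tested so, 10 of them picked for the size of their difference, and 4 of the 15 had a p under 0.05 (Foxj1, Rfx2, Dnaic1 and Dnah10). The other members with the highest log2 fold changes, picked for their size and given as a description, overlapped between groups. Dnaic1 had 13.7, 7.23, 4.48, 5.65 and 5.62 normalized counts in Het and 21.0, 18.6, 8.39 and 69.6 in Null, or 1.56 on the log2 scale. Drc1 had 23.8, 0.603, 7.36, 12.1 and 1.70 against 15, 15, 33.2 and 52.3, or 2.00 on the log2 scale. Rsph1 had 1.94, 0, 7.31, 6.17 and 61.3 against 44.3, 24, 47 and 9.45, or 2.10 on the log2 scale. Null replicate 4 was the highest library for Dnaic1 and Drc1 but the lowest of the Null libraries for Rsph1, where Het replicate 5 had most.

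The inner arm heavy chain Dnah3 had 38.5, 43.5, 10.8, 4.21 and 81.2 normalized counts in Het and 149, 37.0, 110 and 88.6 in Null, or 1.82 on the log2 scale. Dnah6, another inner arm chain, had 47.5, 33.0, 19.5, 10.3 and 76.9 against 135, 37.1, 82.1 and 95.8, a log2 fold change of 1.36. Dnah10 had 13.5, 14, 5.05, 14.3 and 13 against 43.9, 36.2, 13.6 and 25.1, or 1.2 on the log2 scale. In Dnah3 and Dnah6 the same libraries stood out, with Het replicate 4 lowest, Het replicate 5 highest among Het and Null replicate 2 lowest among Null.

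At the low end Tekt5 had a log2 fold change of -0.92, Rfx2 -0.65 (SE 0.37, exact permutation p = 0.0317), Cfap52 -0.58, Rsph9 -0.29 and Cfap69 -0.25. Rfx2 was below the Het mean in 4 of 4 Null libraries. Leaving out 1 library moved Rfx2 to -0.30 (without Null replicate 4), Cfap52 to -0.061 (without Null replicate 2), Rsph9 to -0.043 (without Het replicate 2) and Tekt5 to between -1.60 (without Null replicate 3) and -0.47 (without Null replicate 2), and Cfap69 turned positive without Null replicate 2 or Het replicate 5. The remaining regulators had log2 fold changes of 0.71 (Mcidas, exact permutation p = 0.0952), 0.29 (Ccno, exact permutation p = 0.460) and 0.17 (Rfx3, exact permutation p = 0.651). Without Null replicate 4, Mcidas moved to 0.32, Ccno to 0.10, Rfx3 to -0.073 and the intermediate chain Dnaic1 to 1.03. Ccno ranged from 0.072 (without Het replicate 2) to 0.65 (without Null replicate 1). The limma adjusted p of every member named in the PGC1a comparison was 0.998.

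Other values moved with this result. Olfactory and vomeronasal receptor genes took 2.65, 2.48, 1.07, 0.609 and 2.87% of the counts in Het and 2.85, 0.808, 1.75 and 3.68% in Null, against 0.231 to 0.519% in the PI3K table, and the libraries low in receptor genes, Het replicates 3 and 4 and Null replicate 2, were also those with the lowest mean log2 value over the members (5.04, 4.71 and 5.10, where the other 6 had 5.26 to 6.15). Of the 834 receptor genes tested, 83.3% had log2 fold changes above 0, with a median of 0.33. With the mean log2 value of the receptor genes held fixed the members' median was 0.15, and without the 4 libraries with the most receptor counts it was -0.01 over 45 members. The 4 libraries left out were Het replicates 1 and 5 and Null replicates 1 and 4. Het replicates 2, 3 and 4 and Null replicates 2 and 3 remained. Foxj1 had 2.46 and 2.17 under these settings, both chosen after the data were seen. The second setting leaves out Het replicate 5, the Het library that lay among the Null libraries for Foxj1. Leaving out 1 library moved the members' median from 0.30 to 0.12 (without Null replicate 4) or 0.49 (without Null replicate 2). The count of members at an unadjusted p under 0.05 went from 6 to 2 without Null replicate 1, Null replicate 4 or Het replicate 4, to 3 without Null replicate 3, Het replicate 2 or Het replicate 3, and to 9 without Null replicate 2.

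**Figure D5:**
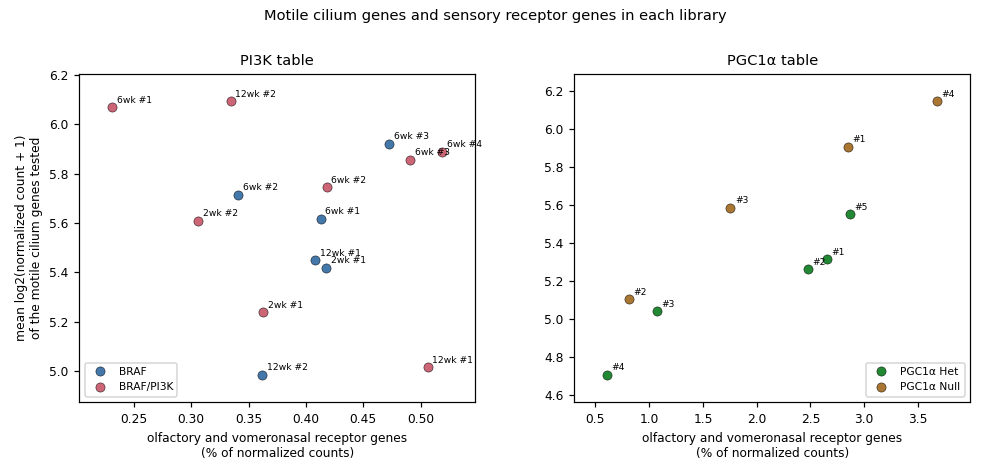
Mean log2(normalized count + 1) over the tested members (vertical) against the percent of counts from olfactory and vomeronasal receptor genes (horizontal), 1 point per library, for the PI3K table and the PGC1a table. In the PGC1a table the percent ranges from 0.609 to 3.68 and the 3 libraries with the lowest percent have the lowest member values. In the PI3K table the percent stays between 0.231 and 0.519, and the lowest member values do not lie at the lowest percents. There BRAF/PI3K 6 week replicate 1 has 0.231% and a member mean of 6.07, and BRAF/PI3K 12 week replicate 1 has 0.506% and 5.02.

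Markers of other lung cells were also summed in the PGC1a groups. Club cell markers, from secretory airway cells, summed to 2715 to 4753 normalized counts in Het and 6426 to 26933 in Null, with 16 of 17 log2 fold changes above 0 (median 1.76) and Tff2 listed at 0 in all Het libraries. The highest sum was that of Null replicate 2, while Null replicates 1, 3 and 4 had 6426, 6651 and 7120. Endothelial markers summed to 1179 to 1713 in Het and 3046 to 3892 in Null, with 18 of 18 above 0 (median 1.81). Ciliated cell markers, none of them a member but some on the other cilium lists, summed to 444 to 844 in Het and 542 to 948 in Null, with 11 of 14 above 0 (median 0.43), and 1700001C02Rik was listed at 0 in all Het libraries. Macrophage markers had 17 of 19 above 0, fibroblast markers 18 of 18 and AT2 markers 3 of 20. Mesothelial markers had 7 of 8 (median 1.41), lymphocyte markers 13 of 14 (0.72), neutrophil markers 6 of 6 (0.54) and alveolar type 1 markers 8 of 20 (-0.01). In all of these lists 0 genes had a limma adjusted p under 0.05, and their part in the members' values was not tested.

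The genes of the cilium outside the naming rule were read from lists of such genes, and 0 genes on any of them had a limma adjusted p under 0.05 in either the PI3K (weeks pooled) or the PGC1a comparison. Docking and tethering genes, which hold the arms on the doublets, had log2 fold changes above 0 for 5 of 7 and 6 of 7, with Ccdc114 (mean 333 normalized counts in the PI3K table) at 0.01. Preassembly genes outside the Dnaaf names had 3 of 6 and 4 of 6, and light and light intermediate chains 3 of 7 and 3 of 6. Central pair and other axoneme genes had 13 of 25 (median 0.00) and 14 of 21 (median 0.42), and the central pair protein gene Hydin had 0.49 and 0.63. Genes of multiciliogenesis, the making of many basal bodies, had 8 of 17 and 11 of 17, with Foxn4 listed at 0 in all libraries. Intraflagellar transport genes, which build motile and non-motile cilia alike, had 15 of 28 (median 0.13) and 10 of 27 (median -0.11), and Dync2h1, the motor chain of that transport, had -0.54 and -0.47. Ciliated cell markers had 12 of 19 above 0 in the PI3K comparison (median 0.09) and summed to 1189 to 2309 normalized counts in BRAF and 739 to 3198 in BRAF/PI3K.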

How the data were processed

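RNA was extracted from sorted tdTomato-positive tumor cells, made into libraries with a low-input kit (Nugen Ovation Ultralow) and sequenced single-end. Per the labels and the study's methods, reads were quantified with Salmon against mouse GRCm38 on Galaxy, and the authors normalized the estimates with DESeq2, separately for the PI3K and the PGC1a table. Tool versions, the annotation and strand settings are not given in the sources used here, so overlapping and antisense genes cannot be told apart. The deposited values are a normalized signal (DESeq2 normalized counts, unit: normalized count): they were not whole reads (10.6 to 41.5% of values under 20 were whole multiples of a library's commonest value, within 0.01), so no count test was run and depth in reads is unknown. The deposited files also hold the authors' DESeq2 comparison tables (fold changes and p-values), which were not used. No column of values was left without a sample (0 columns).

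Values were compared as log2(normalized count + 1), which understates changes of low genes, for genes with a mean of at least 10, with limma 3.58.1 (trend, R 4.3.3) and Benjamini-Hochberg adjustment over all genes of the table. The weeks pooled comparison had genotype alone, the within-week and interaction contrasts came from 1 fit of 6 groups, and the week contrasts from genotype plus week. The regulators and members picked for the size of their difference (14 in the weeks pooled and 6 week comparisons, 15 for PGC1a) were also tested by exact two-sided permutation (scipy 1.17.1), and p-values are printed for the regulators. Motifs were searched in RefSeq promoters. The scripts were tested on simulated data. Members named in the text are the 5 regulators, the 2 with most counts in each role, the 5 highest and 5 lowest log2 fold changes in the weeks pooled and PGC1a comparisons, and, from other cilium lists, some of the 3 genes with most counts. Others (Cfap65, Dnah6, Dnah10, Dnah12, Cfap43, Cfap20, and the values within weeks) were chosen after their values were seen. The members and lists were chosen with earlier results of these data known. Where labels do not say how libraries relate, p-values measure only the spread between these samples. Alternatives were a pseudocount of 4, a minimum mean of 40 or none, quantile or total scaling, week, sex or replicate number as factors, and leaving out libraries.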

Additional observations from a re-analysis of the deposited data

Results flagged for a closer look

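In 58 groups of 4 to 10 libraries checked with Dixon's 95% criterion, which flags about 1 group in 20 by chance, a library stood apart from its group in 4 cases, in 3 members. Mcidas had a normalized count of 3.51 in the BRAF library at 2 weeks, below the other 5 BRAF libraries. Rfx2 had 53.1 in BRAF/PI3K replicate 2 at 2 weeks, below the other 7 of that genotype, and 21.0 in PGC1a Null replicate 4, below the other 3. Cfap52 had 39.1 in PGC1a Null replicate 2, which was also the Null library with the lowest mean over the members.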

How the results depend on the processing

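In all 9 comparisons 0 members had an adjusted p under 0.05 under every alternative run. The medians of the members were less steady, and the cause was not tested. At 12 weeks the median was 0.31 and ranged from -0.080 (without BRAF/PI3K 12 week replicate 2) to 0.50, and for 6 against 2 weeks it was 0.14 and ranged from 0.034 to 0.47 (without the BRAF library at 2 weeks). At 6 weeks the median was -0.00 and reached 0.29 without BRAF 6 week replicate 3, and for PGC1a it was 0.30 and became -0.0068 without the 4 libraries with the most receptor counts. Other medians ranged on leaving out 1 library from 0.03 to 0.25 with the weeks pooled, from -0.46 to -0.28 for 12 against 6 weeks and from 0.12 to 0.49 for PGC1a.

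Log2 fold changes near 0 turned sign. With the weeks pooled Rfx3 was -0.01, and 0.039 with equal totals, 0.044 with sex as a factor, 0.035 under the replicate block, 0.025 without both BRAF/PI3K libraries at 12 weeks, and -0.11 to 0.056 leaving out 1 library. Foxj1 was -0.023 under the block and -0.018 to 0.78 leaving out 1 library, and Mcidas -0.17 to 0.46. In the PGC1a comparison Ccno was -0.017 with quantile normalization, Cfap69 0.091 under the block and -0.59 to 0.091 leaving out 1 library, and Rfx3 -0.41 without the 4 libraries with the most receptor counts and -0.073 to 0.35 leaving out 1. The cause was not tested.

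Replicate numbers are shared between groups, but same-numbered libraries did not deviate together (correlations of -0.28 to -0.01 in 3 pairs at 6 weeks and -0.47 to 0.21 in 4 PGC1a pairs), so they were not taken as pairs. With the replicate block the medians were 0.09 with the weeks pooled, -0.29 for 12 against 6 weeks and 0.41 for PGC1a, with 0 members at an adjusted p under 0.05. Counts at an unadjusted p under 0.05 went from 3 to 6 at 6 weeks and from 1 to 4 for 12 against 6 weeks. Without both BRAF/PI3K libraries at 12 weeks, the comparison at 12 weeks could not be fitted. Few libraries per group, low counts and unknown read depth limit what could be seen.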

Other observations

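The genes outside the naming rule whose log2 values followed the members' mean most closely are given as a description. Over the 14 libraries of the PI3K table they were led by Ccdc103, a dynein arm assembly gene (Pearson r = 0.881), Mad2l1bp (0.815) and Gm10171 (0.806), among 17504 genes. Over the 9 libraries of the PGC1a table they were led by Luzp2 (0.971), Gm2628 (0.968) and Gm44212 (0.963), among 17377 genes, and the first 10 held the olfactory receptor genes Olfr355 (0.956) and Olfr701 (0.953). These libraries share their preparation and normalization, and with 9 points many genes reach high values.

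Among the markers of other cell types, the secretory proteins of club cells stood out in size in the PGC1a comparison. Scgb1a1 had a log2 fold change (Null over Het) of 3.16 (limma adjusted p = 0.177) and Scgb3a2 of 4.49 (limma adjusted p = 0.267), so neither passed the test. Both were chosen after their values were seen, and the sum of the club cell list was highest in Null replicate 2.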
